A study of Mus musculus with 2 samples.

Results

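The genes described here encode the core of the machinery that writes and reads methylation of histone H3 at lysine 9 (H3K9), and that silences heterochromatin and retroelements. They are the 10 rows of the deposited table whose symbols are Trim28, Setdb1, Atf7ip, Cbx1, Cbx3, Cbx5, Suv39h1, Suv39h2, Ehmt1 and Ehmt2, out of 23418 rows, and all 10 were found. The study compared C57BL/6 mouse embryos that received an siRNA targeting Dnmt1, whose product keeps DNA methylated after replication, with embryos that received a scrambled siRNA. Both groups were collected at the 4 to 8-cell stage, and their age is given only by that stage. Each group is 1 library from a pool of 20 embryos, so the values of single embryos and the spread between pools are not known.

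H3K9 methylation and DNA methylation are linked silencing marks in mammals. KRAB zinc finger proteins bind retroelements and imprinted regions and recruit TRIM28, which in turn brings in the methyltransferase SETDB1 and heterochromatin protein 1 (HP1). SUV39H1 and SUV39H2 write the mark at pericentromeric heterochromatin, EHMT1 and EHMT2 (GLP and G9a) write it in euchromatin, and the HP1 proteins bind it. In early mouse embryos the maternal supply of Trim28 is needed to keep imprinted regions methylated through the wave of genome-wide demethylation.

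The siDnmt1 library held 12236615 counts and the scrambled library 11675483, of which Rn45s, the ribosomal RNA precursor, took 37.3% and 29.9%. Dnmt1 itself, the targeted gene, had 687 counts in siDnmt1 embryos and 847 in scrambled embryos, 1.23-fold lower (95% counting interval 1.11 to 1.37). Of 1399 genes with a mean count within 2-fold of that of Dnmt1, 69.1% were at least as far apart. Of 11 oocyte and cleavage-embryo markers, 9 had a count in siDnmt1 embryos and 10 in scrambled embryos. Their summed counts were 4359 and 5700, and Zar1 was at 0 in both. Of the 7 that passed a mean of 20 counts, 3 were at least 2-fold lower in siDnmt1 embryos and 0 higher. Of all 7315 genes that passed it, 16.7% were at least 2-fold lower and 12.5% higher. The 7 markers had a median log2 ratio of -0.53. Zfp352, a 2-cell stage gene, had 112 counts in siDnmt1 embryos and 802 in scrambled embryos. Dppa3 had 70 and 194, and the oocyte gene Zp3 had 13 and 42. The other 4 were within 2-fold: Nlrp5 (189 and 257) and Pou5f1 (1489 and 2152) were lower in siDnmt1 embryos. Gdf9 (27 and 24) and Tead4 (2455 and 2202) were higher. With the trend of the ratio with transcript length removed, 1 of the 7 was at least 2-fold lower, and the median was -0.19. Zfp352 was then at -2.60, Dppa3 at -0.19 and Zp3 at -0.62. The part of the marker difference between the pools in the values below was not tested. All 10 cumulus or granulosa cell markers were at 0 in both libraries. Of 6 fibroblast markers 5 were at 0 in both, and Thy1 had 18 and 16 counts. The 5 blood markers summed to 16 counts in siDnmt1 embryos and 8 in scrambled embryos, with the globin genes at 0.

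With 1 library per group no test of the siRNA was possible. Folds are ratios of deposited counts, and the interval beside a fold is a 95% Clopper-Pearson interval that covers counting error only. The log2 ratio is log2((siDnmt1 + 5)/(scrambled + 5)), which understates the change of genes with few counts. It was taken for the 7315 genes whose mean over both libraries reached 20 counts. In bulk RNA of pooled embryos, fewer cells with a transcript and less of it per cell cannot be told apart.

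Of the members with enough counts to compare, the HP1 genes Cbx5 and Cbx1 had the highest and the lowest ratio. Their promoters are shown because DNMT1 acts on CpG dinucleotides, written here in capitals, although no methylation was measured in these libraries. The 300-base windows run 5′ to 3′ from 250 bases before to 50 after the first RefSeq start, on GRCm38.p6, which is not the mm9 build of the counts. They lie at chr11:96788885-96789184 on the plus strand, chr6:51470366-51470665 on the plus strand and chr15:103239803-103240102 on the minus strand.
Cbx1: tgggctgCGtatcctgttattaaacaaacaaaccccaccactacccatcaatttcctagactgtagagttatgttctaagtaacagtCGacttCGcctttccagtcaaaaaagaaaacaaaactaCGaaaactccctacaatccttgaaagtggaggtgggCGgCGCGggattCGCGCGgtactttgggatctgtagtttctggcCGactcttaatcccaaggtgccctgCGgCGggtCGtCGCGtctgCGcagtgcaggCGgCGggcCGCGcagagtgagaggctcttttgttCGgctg
Cbx3: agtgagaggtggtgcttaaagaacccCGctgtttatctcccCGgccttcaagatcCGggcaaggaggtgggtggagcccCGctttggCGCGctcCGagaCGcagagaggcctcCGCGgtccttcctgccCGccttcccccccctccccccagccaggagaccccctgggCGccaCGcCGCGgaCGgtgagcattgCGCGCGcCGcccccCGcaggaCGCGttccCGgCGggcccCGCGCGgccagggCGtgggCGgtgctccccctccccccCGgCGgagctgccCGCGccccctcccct
Cbx5: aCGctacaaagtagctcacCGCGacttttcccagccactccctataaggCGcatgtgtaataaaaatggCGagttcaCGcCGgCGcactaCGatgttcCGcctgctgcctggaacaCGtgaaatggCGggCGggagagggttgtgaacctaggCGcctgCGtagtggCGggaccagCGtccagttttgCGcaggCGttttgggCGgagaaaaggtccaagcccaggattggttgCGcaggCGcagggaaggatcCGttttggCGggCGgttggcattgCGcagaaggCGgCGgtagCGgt
The Cbx1 window held 22 CpG dinucleotides, that of Cbx3 held 34 and that of Cbx5 held 29. The letters CG read the same on both strands. Across 32851 RefSeq promoter windows of this length the median was 7, and 23.1% held at least as many as Cbx1, 7.73% as many as Cbx3 and 12.9% as many as Cbx5. The first windows of all 10 genes held between 15 (Setdb1 and Suv39h1) and 34 (Cbx3 and Ehmt1), so all were above that median.

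Trim28, the corepressor scaffold that binds KRAB zinc finger proteins, was by far the most abundant member. It had 6959 counts in siDnmt1 embryos and 8139 in scrambled embryos, 1.17-fold lower (1.13 to 1.21). The log2 ratio was -0.23, and 41.2% of the 7315 genes had a ratio at or below it. Of 206 genes with a mean count within 2-fold of that of Trim28, 72.8% were at least as far apart in either direction. Per kilobase of its longest annotated transcript Trim28 had a level of 2145 counts in siDnmt1 embryos and 2508 in scrambled embryos. That level lay at percentile 98.6 and 98.9 of the genes compared.

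Setdb1, the H3K9 methyltransferase recruited by TRIM28, had 627 counts in siDnmt1 embryos and 669 in scrambled embryos. Its 1.07-fold lower count was within counting error (0.96 to 1.19). A 271-base stretch of its transcript was 99.6% identical to the noncoding RNA gene Gm4349, which had 39 counts in siDnmt1 embryos and 217 in scrambled embryos, so the Setdb1 count is uncertain by the reads shared with it. Atf7ip, the partner that stabilises SETDB1 and keeps it in the nucleus, had 1376 counts in siDnmt1 embryos and 994 in scrambled embryos, 1.38-fold higher (1.27 to 1.50). Its log2 ratio of 0.47 was exceeded or equalled by 29.1% of genes. Of 1066 genes with a mean count within 2-fold of that of Atf7ip, 53.0% were at least as far apart in either direction.

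**Figure D1:**
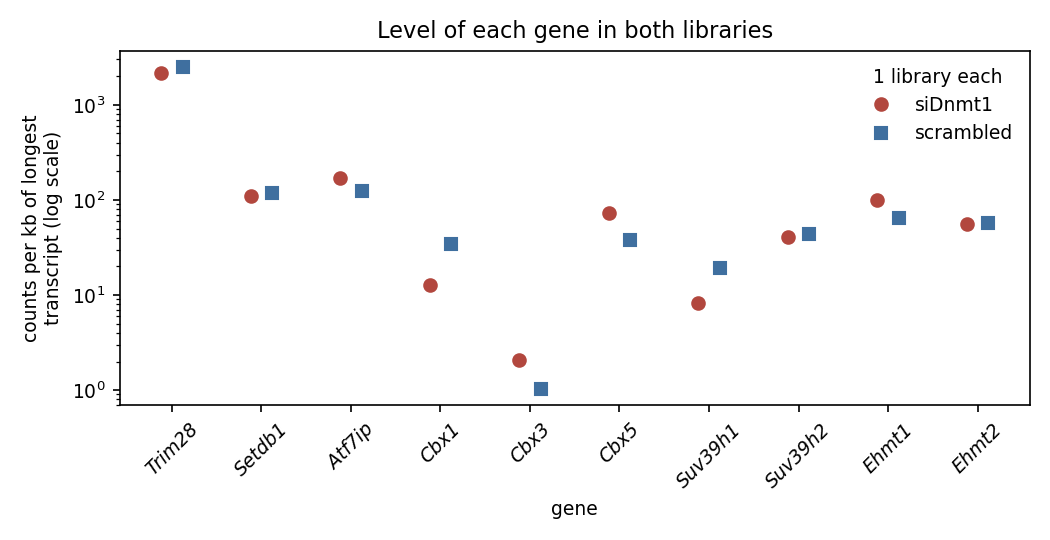
Level of each of the 10 genes in counts per kilobase of its longest annotated transcript (log axis), with 1 point per library, siDnmt1 as circles and scrambled as squares. Trim28 lay at 2145 and 2508, far above the others, and Cbx3 at 2.05 and 1.03, below the others.

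The ratio of Setdb1 to Atf7ip within a library does not depend on how the libraries are scaled. Setdb1 made up 31.3% of the counts of the pair in siDnmt1 embryos (29.3 to 33.4) and 40.2% in scrambled embryos (37.9 to 42.6). The ratio of Setdb1 to Atf7ip in siDnmt1 embryos was 0.68 times that in scrambled embryos, with an exact conditional interval of 0.59 to 0.78. For Trim28 and Setdb1 the same quantity was 0.91, and its interval of 0.81 to 1.02 included 1.

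Among the readers of H3K9 methylation, Cbx5 and Cbx1 differed in opposite directions. Cbx5, which encodes HP1 alpha, had 643 counts in siDnmt1 embryos and 330 in scrambled embryos, 1.95-fold higher (1.70 to 2.23). Cbx1, which encodes HP1 beta, had 30 counts in siDnmt1 embryos and 82 in scrambled embryos, 2.73-fold lower (1.78 to 4.30). Both intervals excluded equality, yet such ratios were common between these libraries. Of the 1696 genes with a mean count within 2-fold of that of Cbx5, 20.4% were at least as far apart, and of the 2650 genes near Cbx1, 27.1% were.

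Cbx3, which encodes HP1 gamma, had 6 counts in siDnmt1 embryos and 3 in scrambled embryos, too few for the filter on low counts. The ratio of 2.00 had an interval of 0.43 to 12.4, so no difference was detectable at this depth. The longest coding transcript of Cbx3 matched 11 annotated pseudogenes at 90% identity or more over at least 150 bases, against 1 for Cbx1 and 0 for each of the other 8 members. None of the 11 has a row in the table (0 rows). How reads with several matches were counted is not given in the sources used here, so the low Cbx3 count is uncertain.

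Within the HP1 counts of a library, Cbx5 made up 94.7% in siDnmt1 embryos (92.7 to 96.3) and 79.5% in scrambled embryos (75.3 to 83.3). Cbx1 made up 4.42% in siDnmt1 embryos (3.0 to 6.25) and 19.8% in scrambled embryos (16.0 to 23.9). These shares are of counts and follow the long Cbx5 transcript (8803 bases, against 2377 for Cbx1). Their total includes Cbx3, whose low count is uncertain as given above. All HP1 shares, also those per kilobase, are therefore uncertain beyond their counting intervals. Per kilobase of the longest transcript, Cbx5 held 83.3% of the HP1 level in siDnmt1 embryos and 51.3% in scrambled embryos, and Cbx1 held 14.4% and 47.3%. The ratio of Cbx1 to Cbx5 in siDnmt1 embryos was 0.19 times that in scrambled embryos (0.12 to 0.30). Library scaling and a fixed transcript length cancel in this value, but a trend of the log2 ratio with transcript length does not. That trend was -0.16 at the length of Cbx1 and 0.20 at that of Cbx5. With the trend removed, the log2 ratios were -1.15 for Cbx1 and 0.75 for Cbx5, against -1.31 and 0.95 before.

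**Figure D2:**
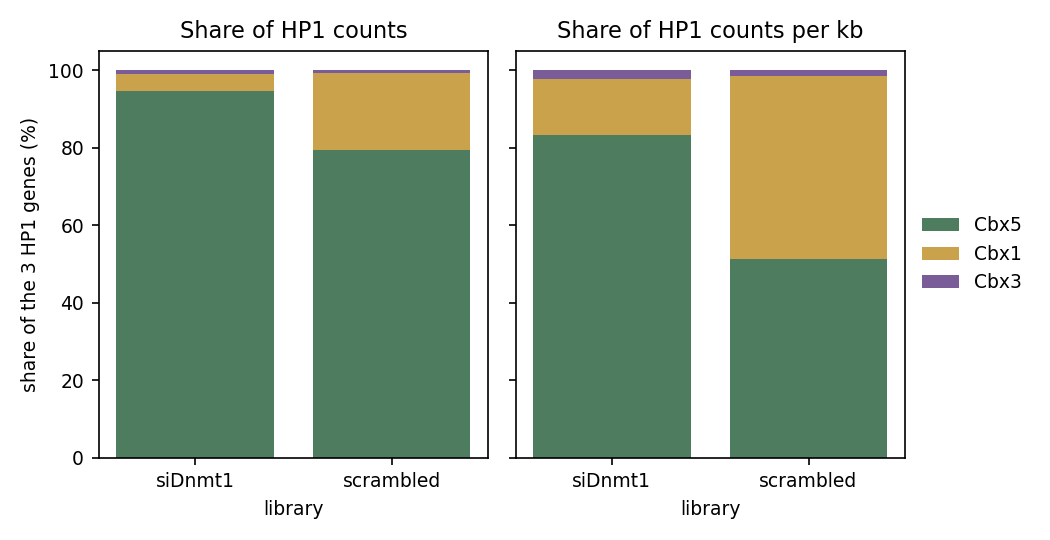
Share of each HP1 gene in the summed counts (left) and in the summed counts per kilobase of longest transcript (right), in percent, with 1 bar per library. Cbx5 took 94.7% of the counts in siDnmt1 embryos and 79.5% in scrambled embryos, and 83.3% and 51.3% per kilobase. The totals include Cbx3, whose low count is uncertain.

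The Suv39h pair, which writes H3K9 trimethylation at pericentromeric repeats, differed between its genes. Suv39h1, on the X chromosome, had 26 counts in siDnmt1 embryos and 60 in scrambled embryos, 2.31-fold lower (1.43 to 3.81). Its log2 ratio of -1.07 lay just past the 2-fold threshold, and 38.5% of 2698 genes with a similar count were at least as far apart. Suv39h2 had 176 counts in siDnmt1 embryos and 190 in scrambled embryos, and its 1.08-fold lower count was within counting error (0.87 to 1.33). Suv39h1 made up 12.9% of the pair in siDnmt1 embryos (8.58 to 18.3) and 24% in scrambled embryos (18.8 to 29.8). The ratio of Suv39h1 to Suv39h2 in siDnmt1 embryos was 0.47 times that in scrambled embryos (0.27 to 0.79). With the length trend removed, the log2 ratios were -1.02 for Suv39h1 and -0.20 for Suv39h2, against -1.07 and -0.11 before.

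Exons of Suv39h2 overlap those of Dclre1c on the other strand over 357 bases, 8.10% of its annotated exon sequence. Dclre1c had 355 counts in siDnmt1 embryos and 299 in scrambled embryos. Exons of Suv39h1 overlap an antisense gene without a row in the table over 14.6% of their length. Whether reads were counted by strand is not given in the sources used here, so reads of these overlaps cannot be assigned.

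The euchromatic methyltransferases EHMT1 and EHMT2 act as a heterodimer. Ehmt1 had 593 counts in siDnmt1 embryos and 386 in scrambled embryos, 1.54-fold higher (1.35 to 1.75). Ehmt2 had 224 counts in siDnmt1 embryos and 231 in scrambled embryos, and its 1.03-fold lower count was within counting error (0.85 to 1.24). Ehmt1 made up 72.6% of the pair in siDnmt1 embryos (69.4 to 75.6) and 62.6% in scrambled embryos (58.6 to 66.4). The ratio of Ehmt1 to Ehmt2 in siDnmt1 embryos was 1.58 times that in scrambled embryos (1.26 to 1.99). With the length trend removed, the log2 ratios were 0.46 for Ehmt1 and -0.09 for Ehmt2, against 0.61 and -0.04 before. The Ehmt1 log2 ratio was 0.61, and 23.6% of genes had a ratio at or above it. Of 1688 genes with a mean count within 2-fold of that of Ehmt1, 41.8% were at least as far apart in either direction.

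**Figure D3:**
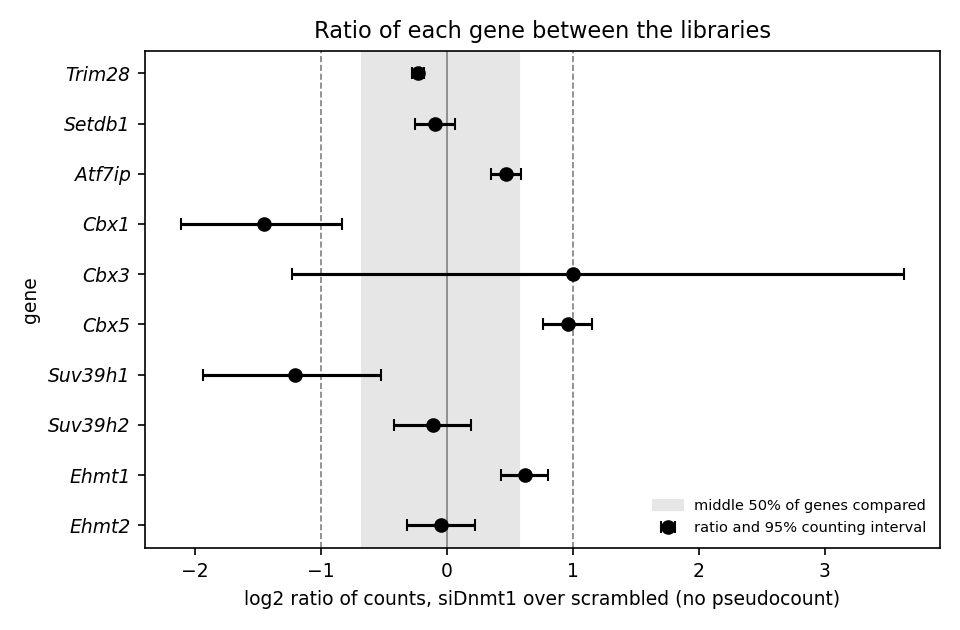
Log2 ratio of counts without a pseudocount, siDnmt1 over scrambled, for each gene with its 95% counting interval. The grey band is the middle 50% of all 7315 genes compared, from -0.67 to 0.57 on the scale with a pseudocount of 5, and dashed lines mark 2-fold. Cbx1 and Suv39h1 lie left of the left dashed line, Cbx5 lies near the right one, and the wide interval of Cbx3 spans both lines.

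Of the 10 members, 9 passed the filter on low counts. None (0) was at least 2-fold higher in siDnmt1 embryos, against 12.5% of the 7315 genes compared, and 2 (Cbx1 and Suv39h1) were at least 2-fold lower, against 16.7%. With equal totals without Rn45s, Cbx5 was past 2-fold (log2 ratio 1.05) and Suv39h1 was not (-0.99). With a pseudocount of 20 or the count trend removed, Cbx1 alone was at least 2-fold lower. The median log2 ratio of the 9 was -0.09, beside a median of -0.02 over all genes compared, so as a list they lay close to the background. Removing the trend of the ratio with transcript length left Cbx1 at -1.15, Suv39h1 at -1.02 and Cbx5 at 0.75. The medians were then -0.18 for the 9 members and 0.02 over all genes, further apart than before.

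In siDnmt1 embryos the order of levels per kilobase was Trim28, Atf7ip, Setdb1, Ehmt1, Cbx5, Ehmt2, Suv39h2, Cbx1, Suv39h1 and Cbx3. Neighbours whose exact Poisson intervals overlapped were Setdb1 (111) and Ehmt1 (99.6), and Cbx1 (12.6) and Suv39h1 (8.34), in counts per kilobase. In scrambled embryos Cbx5 (37.5) stood below Ehmt2 (57.4) and Suv39h2 (43.9) and overlapped Cbx1 (34.5). There Atf7ip (123) and Setdb1 (118), Ehmt1 (64.8) and Ehmt2, Ehmt2 and Suv39h2, and Suv39h2 and Cbx5 also overlapped. Levels per kilobase rest on the transcript taken: with the median annotated transcript length in place of the longest, Setdb1 came in place 6 of 10 in siDnmt1 embryos and place 5 in scrambled embryos, in place of 3 in both.

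Genes that work with these members were taken from lists of partners, further writers and erasers. Of 66 such genes, all in the table, 55 passed the filter, and 7 were 2-fold or more higher and 4 were 2-fold or more lower in siDnmt1 embryos, against 12.5% and 16.7% of all genes compared. Their median log2 ratio was 0.13, against -0.02 over all genes compared.

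Of the partners of TRIM28 and KRAB zinc fingers, 16 of 18 passed the filter, with a median log2 ratio of 0.20. Of these, 1 was at least 2-fold higher (12.5% of all genes compared) and 1 at least 2-fold lower (16.7%). Zfp568, a KRAB zinc finger gene, had 1883 counts in siDnmt1 embryos and 791 in scrambled embryos, 2.38-fold higher (2.19 to 2.59). Smarcad1, a remodeller that binds TRIM28, had 488 and 242 counts, 2.02-fold higher (1.73 to 2.36), and lay just short of 2-fold once the pseudocount was added. Trim24, a relative of TRIM28, was 1.32-fold lower (1.25 to 1.38).

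The HUSH complex spreads H3K9 methylation over retroelements with SETDB1. Of its list of 5 genes 4 passed the filter, with a median log2 ratio of -0.55. Of these, 0 were past 2-fold in either direction, against 29.1% of all genes compared. Mphosph8, its chromodomain subunit, had 93 counts in siDnmt1 embryos and 146 in scrambled embryos, 1.57-fold lower (1.20 to 2.06). Pphln1 had 343 and 494 counts, 1.44-fold lower (1.25 to 1.66). D14Abb1e, an older symbol of the scaffold gene Tasor, had 130 and 198 counts, 1.52-fold lower. Morc2a, an ATPase that acts with HUSH, was 1.20-fold higher (1.13 to 1.28). Ratios of this size were common: of genes with a similar count, 50.4% were at least as far apart as Mphosph8, 50.3% as D14Abb1e and 51.9% as Pphln1. Atf7ip2, the paralogue of Atf7ip, had 7 counts in siDnmt1 embryos and 32 in scrambled embryos, 4.57-fold lower (1.98 to 12.3), and its mean of 19.5 counts missed the filter. Without the filter 1 of the 5 was at least 2-fold lower, against 9.06% of all 23418 rows.

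Of the other H3K9 methyltransferases and G9a partners, 8 of 10 passed the filter, with a median log2 ratio of 0.05. Of these, 1 was at least 2-fold higher (12.5% of all genes compared) and 1 at least 2-fold lower (16.7%). Setdb2, a relative of Setdb1, had 164 counts in siDnmt1 embryos and 521 in scrambled embryos, 3.18-fold lower (2.66 to 3.81). Zfp644, a zinc finger protein of the G9a and GLP complex, had 3500 and 1285 counts, 2.72-fold higher (2.55 to 2.91). Wiz, another zinc finger protein of that complex, had 134 and 73 counts, 1.84-fold higher (1.37 to 2.48). Cdyl, a chromodomain corepressor, had 17 and 25 counts, with an interval that included equality.

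Of the H3K9 demethylases, 9 of 11 passed the filter, with 3 at least 2-fold higher (12.5% of all genes compared), 1 at least 2-fold lower (16.7%) and a median log2 ratio of 0.43. Phf8 had 287 counts in siDnmt1 embryos and 70 in scrambled embryos, 4.10-fold higher (3.15 to 5.40). Jhdm1d, also called Kdm7a, had 556 and 239 counts, 2.33-fold higher (2.00 to 2.72). Kdm1a, which removes H3K4 and in some complexes H3K9 methylation, had 282 and 642 counts, 2.28-fold lower (1.98 to 2.63). Kdm3b was 1.10-fold higher (1.04 to 1.16). After removal of the length trend 1 of the 9 was at least 2-fold higher (12.9% of all genes), and their median was 0.30.

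Of the HP1-bound and heterochromatin proteins, 16 of 17 passed the filter, with a median log2 ratio of -0.03. Of these, 1 was at least 2-fold higher (12.5% of all genes compared) and 1 at least 2-fold lower (16.7%). Uhrf1, which reads both hemimethylated DNA and H3K9 methylation, had 58 counts in siDnmt1 embryos and 380 in scrambled embryos, 6.55-fold lower. Sgol1, the centromere protector shugoshin, had 55 and 25 counts, 2.20-fold higher (1.35 to 3.68), and lay on the threshold. Adnp, a zinc finger protein that binds HP1, was 1.81-fold higher (1.71 to 1.93). Senp7, a SUMO protease that binds HP1 alpha, had 22 and 43 counts, 1.95-fold lower (1.14 to 3.43).

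**Figure D4:**
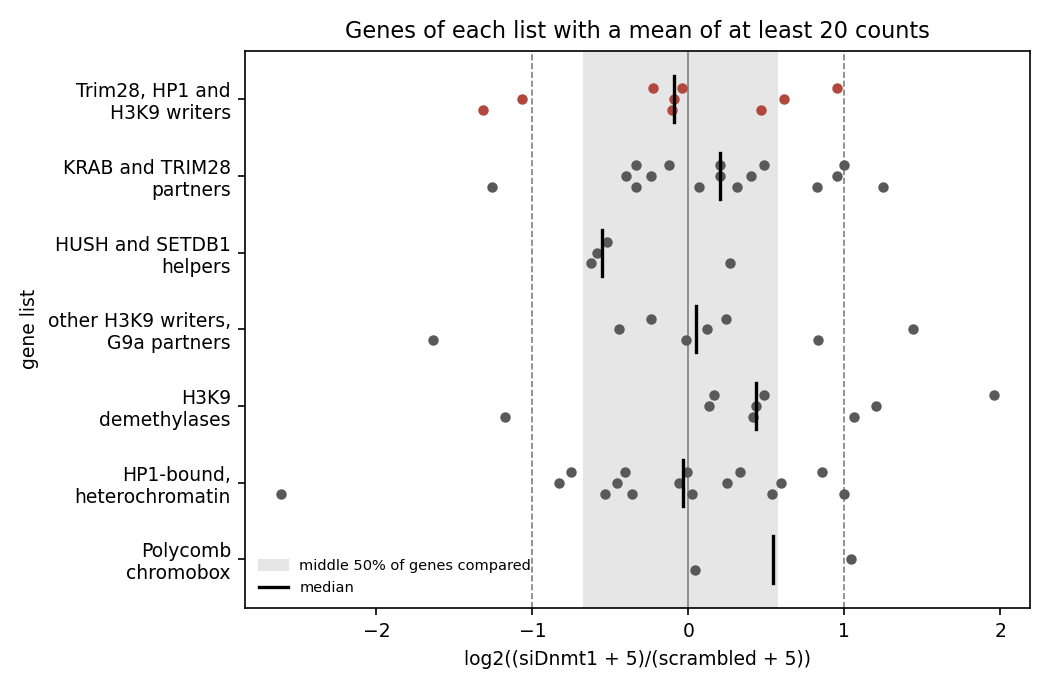
Log2 ratio, siDnmt1 over scrambled with a pseudocount of 5, of each listed gene that averaged 20 counts or more; black bars are medians, the grey band is the middle 50% of all genes compared and dashed lines mark 2-fold. The 9 members spread from -1.31 to 0.95 around a median of -0.09, and the demethylases have the median furthest to the right among the lists with more than 2 genes, 0.43.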

How the data were processed

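Poly-A RNA of 1 pool of 20 embryos per group was amplified by 20 cycles of PCR and sequenced, per the labels' protocols. No molecular identifiers are described, so PCR copies of a molecule may have been counted more than once. The intervals take the counts as independent and cover counting error only, so they may be too narrow. The submitters' processing notes list mm9 as the build and HISAT2, HTSeq, Trim Galore and DESeq2 as tools, without versions or roles. The authors deposited 1 table of counts per gene symbol, described as DESeq2-normalised. In both columns 0 whole numbers from 1 to 59 were missing, and no value from 2 to 30 was over 1.29 times the mean frequency of its neighbours. The deposited values were therefore treated as counts on their own scale, and the DESeq2 size factor recomputed from them was 1 for both.

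The pseudocount was 5, the filter a mean of 20 counts and the size rule 2-fold. edgeR and DESeq2 could not be fitted with 1 library per group. Lengths came from the longest GENCODE M21 transcript (7270 of 7315 genes) and promoters from RefSeq, both on GRCm38. The lowess span was 0.3. Genes named are all members, Dnmt1, and, of the genes of each partner list that passed the filter, the 2 highest and 2 lowest, or all where fewer than 5 passed; the genes that start head to head with a member were also named. Rn45s, Gm4349, Dclre1c, Thy1, Zar1, Zfp352, Dppa3, Zp3, Nlrp5, Pou5f1, Gdf9, Tead4, Atf7ip2, Cbx6 and Cbx8 were added after their values were seen. Some genes that this rule takes are left out here. The members and lists were chosen with earlier results of these data known. The size rule and the intervals were run on simulated counts with Poisson error only, and the trend removal on simulated ratios with a linear trend. That setting holds no variation between pools and no PCR copies, so it cannot show how they perform on these libraries. The software was R 4.3.3 with DESeq2 1.42.0 and edgeR 4.0.16, and Python 3.11.15 with scipy 1.17.1, statsmodels 0.14.6, pandas 2.3.3 and numpy 2.4.6.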

Additional observations from a re-analysis of the deposited data

How the results depend on the processing

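No paired analysis was possible because each group has 1 library. The alternatives were pseudocounts of 1 and 20, 5 other scalings, trends with transcript length or mean count removed, other filters and a 4-fold threshold; the trend with median transcript length was added after seeing the data. Among the 10 alternatives that apply to a single gene are the DESeq2 size factors. These were 1 for both libraries, so that alternative repeats the main values and adds no check to the counts below. Under the 10 alternatives, Cbx1 stayed at least 2-fold lower in all 10, with log2 ratios from -1.42 to -1.03. Suv39h1 was at least 2-fold lower in 7 of 10 (-1.18 to -0.80). It was short of 2-fold at a pseudocount of 20 (-0.80), with equal totals without Rn45s (-0.99) and with the count trend removed (-0.93). Cbx5 ranged from 0.75 to 1.05 and passed 2-fold in 1 of 10, with equal totals without Rn45s. Ehmt1 (0.46 to 0.71), Atf7ip (0.27 to 0.56), Trim28 (-0.39 to -0.07) and Suv39h2 (-0.20 to -0.02) kept their sign in all 10, while Setdb1 changed sign in 1 and Ehmt2 in 3. The Cbx5 share of HP1, 83.3% in siDnmt1 embryos and 51.3% in scrambled embryos per kilobase of the longest transcript, was 90.4% and 67.0% with the median transcript and 94.7% and 79.5% without a length correction. All of these shares include the uncertain Cbx3 count. Genes at least 2-fold higher and lower numbered 911 and 1221, against 1682 and 2122 without the filter, 395 and 482 at a mean of at least 100 counts, and 193 and 330 at 4-fold. At this depth no difference was detectable for Cbx3, and Cbx1 and Suv39h1 have wide intervals.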

Other observations

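The Polycomb members of the chromobox family share the chromodomain of HP1 but read H3K27 methylation. Cbx2 had 205 counts in siDnmt1 embryos and 97 in scrambled embryos, 2.11-fold higher (1.65 to 2.72), and Cbx7 had 132 and 128. Cbx8 (1 and 0 counts) and Cbx6 (16 and 0) did not pass the filter. Cbx6 was at least 5.33-fold higher in siDnmt1 embryos when the scrambled library was set at a floor of 3 counts.

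Of the 10 members, 2 start head to head with a gene of the same family of RNA-binding proteins. Hnrnpa1 starts 545 bases from Cbx5 on the other strand and Hnrnpa2b1 starts 722 bases from Cbx3, by the nearest RefSeq starts on GRCm38. Hnrnpa1 had 66 counts in siDnmt1 embryos and 75 in scrambled embryos, with an interval that included equality, whereas Cbx5 was 1.95-fold higher. Hnrnpa2b1 had 1577 and 2810 counts, 1.78-fold lower (1.67 to 1.90), beside 6 and 3 counts of Cbx3. Atf7ip also starts head to head with the noncoding gene Gm44140, 98 bases away, which has no row in the table.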
